A study of Mus musculus with 6 samples.

Results

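The lysosomal transcripts described here were the subunits and accessory proteins of the vacuolar proton pump, cathepsins, glycosidases and sulfatases, lipid hydrolases, lysosomal membrane proteins with the sterol transfer protein Npc2, and the transcription factor gene Tfeb. They were taken by name from the expression table, as every symbol that begins with Atp6v or Atp6ap together with a list of lysosomal genes. Of 20475 genes, 59 matched, and the 50 with at least 10 normalised reads in at least 2 of the 6 libraries are the members. The recipient cells were NIH3T3, a mouse embryonic fibroblast line, at passage 5 in DMEM with fetal bovine serum, and RNA was taken 48 h after the addition. The 2 PBS libraries came from cells given the vehicle alone. A further 2 libraries came from cells given extracellular vesicles (EVs) of MCF10A, a human mammary epithelial line that does not form tumours, and the last 2 from cells given EVs of the human line MDA-MB-231, derived from a triple-negative breast cancer, with each kind of EV suspended in PBS. All groups used this 1 recipient line, so that other fibroblasts are not represented, and the EV donor lines were human while the measured genes were mouse.

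Lysosomes break down proteins, glycans and lipids in an acid lumen. The acid is made by the V-ATPase, a rotary pump in which the V1 sector hydrolyses ATP in the cytosol and the V0 sector carries protons through the membrane. Many of its genes, and many hydrolase genes, carry an E-box called the CLEAR element near their start, which is bound by TFEB and its relatives TFE3 and MITF.

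Promoter sequence is shown first, because a shared E-box is the best known feature that these genes have in common. RefSeq windows on GRCm38.p6, each 300 bases long from 250 before to 50 after the start, existed for 42 of the 50 members. The motifs searched were the CLEAR palindrome (TCACGTGA preceded by G and followed by C), its inner TCACGTGA and the E-box core CACGTG, each of which contains the next and reads the same on both strands. The full palindrome was found in 0 of 42 members and in 0.370% of 27025 genes. The inner motif was found in 7 of 42 members, 16.7%, against 1.12% of all genes, and the core in 14 of 42, 33.3%, against 8.09%. The 27025 genes are all those with a RefSeq window and had no minimum of reads, unlike the members, so the sets are not matched. A match is a description of the letters in this window and not a site of binding, and no match says only that the letters are absent from it. The windows with the inner motif are given 5′ to 3′ on the strand of the gene, with TCACGTGA in capitals, 1 per gene, and include 3 pump subunits, 2 cathepsins, the glycosidase gene Gla and the calcium channel gene Mcoln1.
Atp6v1a, chr16:44139373-44139402, minus strand, motif 132 bases before the start: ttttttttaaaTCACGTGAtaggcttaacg
Atp6v0d1, chr8:105566050-105566079, minus strand, motif 4 bases before the start: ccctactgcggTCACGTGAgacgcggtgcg
Atp6v0e, chr17:26676387-26676416, plus strand, motif 2 bases after the start: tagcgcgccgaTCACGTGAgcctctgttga
Ctsd, chr7:142387908-142387937, minus strand, motif 99 bases before the start: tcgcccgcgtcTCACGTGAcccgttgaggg
Ctsa, chr2:164833749-164833778, plus strand, motif 13 bases before the start: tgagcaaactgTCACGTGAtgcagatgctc
Gla, chrX:134601182-134601211, minus strand, motif 195 bases before the start: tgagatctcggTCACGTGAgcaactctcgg
Mcoln1, chr8:3500462-3500491, plus strand, motif 46 bases before the start: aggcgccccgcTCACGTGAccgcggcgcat
Ctsa held another match 4 bases after the start and Gla another 228 bases before it. These 7 genes did not share one pattern in the read values described next. Atp6v1a, Atp6v0e, Ctsd and Gla were lower with MDA-MB-231 EVs than with PBS, Atp6v0d1 was higher with MCF10A EVs, and Ctsa and Mcoln1 were called in no comparison.

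Values are normalised reads, that is, reads adjusted by the authors to a common library size. Their totals still differed, at 25278936 and 25226611 in the PBS libraries, 24849308 and 24846242 after MCF10A EVs, and 24320213 and 23927213 after MDA-MB-231 EVs. Values are given with the mean ± SD over 2 libraries per group (n = 2), and those of genes outside the members to 4 significant digits. Differences are on the log2(normalised reads + 1) scale, and rose, fell, higher and lower in a sentence with a test mean a limma call at a Benjamini-Hochberg adjusted p under 0.05 over all 15025 genes tested. The libraries held 22451173 to 29315530 recovered reads. Nothing in the labels gives the replicates a culture of their own, so a p-value here reflects only the spread between these libraries, which may be technical. Of 12 fibroblast markers all were detected in every library, with a summed level of 19000 to 19100 CPM (counts scaled to library size) with PBS, 16500 to 17000 with MCF10A EVs and 16600 to 16700 with MDA-MB-231 EVs. Of 18 macrophage and osteoclast markers, whose cells are rich in lysosomes, 6 were at 0 reads in every library, and the summed level was 122 to 126, 73.0 to 75.1 and 43.1 to 44.7 CPM in the same order, most of it from Cd14. Summed epithelial markers lay between 1.34 and 2.10 CPM. Of the 5 tested, 1 was called higher and 0 lower in each comparison with PBS. The part of these marker differences in the results was not tested, and in bulk RNA fewer cells of a type cannot be told apart from less RNA per cell.

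Per length, the most abundant members with PBS were Psap at 10360 ± 32.5, Lamp1 at 9975 ± 27.0 and Ctsl at 9648 ± 71.0 normalised reads per kb of exon. They encode the precursor of the saposins, a heavily glycosylated membrane protein and a cysteine protease. Length here is the union of the exons of all protein-coding transcripts of a gene, 2744, 2229 and 6168 bases for these genes. The order of genes rests on that choice. Before division by length Ctsl had the most, 59509 normalised reads, against 28438 for Psap and 22235 for Lamp1. Ctsb and Ctsd followed with 6137 ± 110.0 and 5566 ± 61.8 per kb, and the proteolipid gene Atp6v0c led the pump with 4695 ± 41.5 per kb. Most other pump subunits ranged from 2363 and 2410.0 per kb in the 2 libraries for Atp6ap1 down to 415.2 and 422.0 per kb for Atp6v1d. Neighbours such as Atp6v0a2 at 423.2 ± 1.20 and Atp6v1d at 418.6 ± 4.76 did not differ beyond their spread, which leaves out any error in length. The alternative subunits Atp6v1g2 and Atp6v0a4 stood far below at 18.5 ± 1.45 and 3.94 ± 0.0226 per kb, where Atp6v1g1 had 1908 ± 65.4 and Atp6v0a1 had 781.6 ± 9.70. Tfeb had 76.6 ± 7.58 per kb, below all but 5 of the other members.

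**Figure D1:**
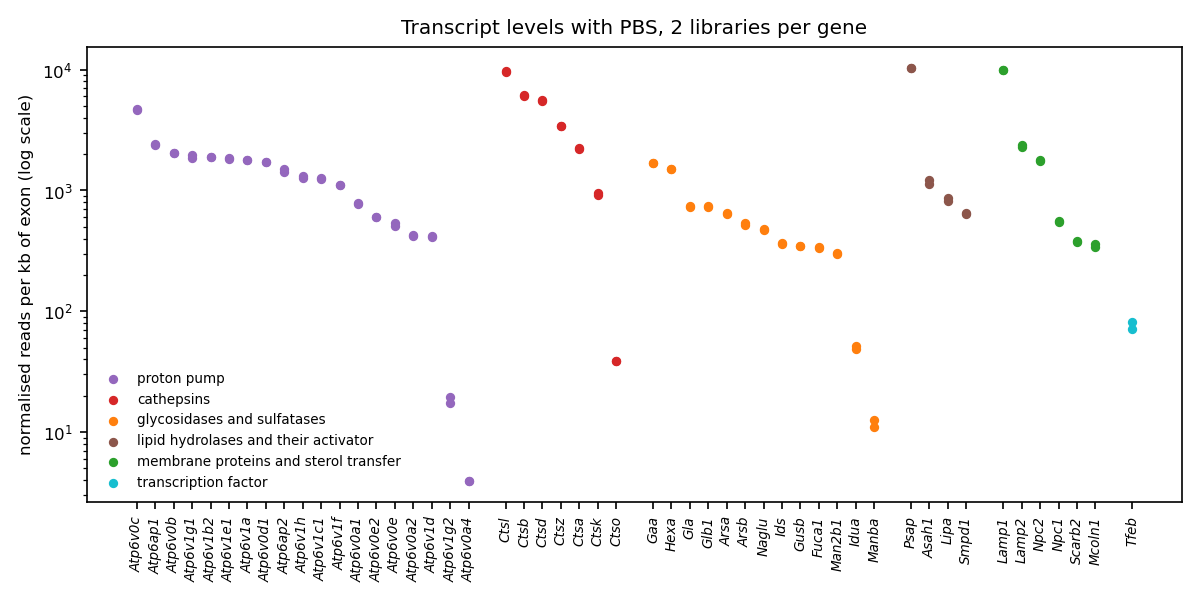
Levels of the 50 members with PBS, in normalised reads per kb of exon on a log axis, with 1 point per library and genes ordered within each class. Psap, Lamp1 and Ctsl lie highest, at means of 9648 to 10360 per kb, and Atp6v0a4 is the lowest at 3.94 per kb.

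The 9 matched genes under the minimum were Atp6v1g3 and Atp6v1e2, both at 0 reads, and Atp6ap1l, Ctsf, Ctss, Ctsh, Atp6v1b1, Atp6v0d2 and Atp6v1c2, with 1 to 42 reads over the 6 libraries. Atp6v1b1, Atp6v0d2 and Atp6v1c2 encode forms of pump subunits known from specialised cells such as kidney intercalated cells and osteoclasts, and Ctss is a protease of antigen-presenting cells. Just inside the minimum was Atp6v0a4, with 14.0 to 22.3 normalised reads, and just outside Atp6v1c2, which reached 9.71.

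Across all 50 members the differences were small and pointed mainly down with MDA-MB-231 EVs. Against PBS 20 members fell and 2 rose, where 20.2% of 12392 genes with the same minimum were called lower and 21.4% higher, so the total called, 22 of 50, was near the 41.6% called over those genes while the split was not even. Among all 15025 genes tested 34.8% were called, 17.9% higher and 16.9% lower. With MCF10A EVs 11 members rose and 7 fell, beside 20.6% and 17.2% of genes with the same minimum (37.8% in either direction) and 17.1% and 14.6% of all genes tested (31.7%), shares near the background in both directions. Between the EV types 20 members were lower and 1 was higher with MDA-MB-231 EVs, beside 12.1% and 8.09% of genes with the same minimum and 10.1% and 6.84% of all (20.2% and 16.9% in either direction). The median log2 difference of the members was -0.07, -0.01 and -0.08 in these 3 comparisons, where that of all genes tested was 0.01, 0.00 and 0.00. Without its sign, the median was 0.115, 0.077 and 0.099 for members and 0.162, 0.147 and 0.102 for genes with the same minimum. Those genes, here and below, are not matched to the members for abundance. A PBS mean of at least 1000 was reached by 42 of the 50 members. Abundant genes had a smaller SE (against PBS 0.0270 for Ctsl, 0.326 for Atp6v0a4), so smaller differences could be called. In all, 34 members were called in at least 1 comparison, and the largest fold among the 50 was 1.36. The comparisons against PBS share the PBS libraries and the direct comparison shares both EV groups with them, so the sets of calls are not independent.

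These counts depended on how the reads were scaled and how the spread was modelled. Against PBS, MDA-MB-231 EVs gave 4 higher and 15 lower members with scaling by library totals, 21.1% of them higher in place of 9.09%. Of all genes called in that setting 67.8% were higher in place of 51.4%. The median of the members moved to -0.01, while that of all genes moved to 0.07. The summed members differed from PBS by -5.0% in normalised reads, but by -0.56% as a share of all normalised reads. Quantile scaling gave 5 higher and 14 lower, 26.3% higher, and between the EV types 3 higher and 14 lower, 17.6% higher in place of 4.76%. With limma without the mean-variance trend, 1 higher and 8 lower, 2 higher and 3 lower, and 0 higher and 1 lower remained past the threshold in the 3 comparisons. Calls over all 15025 genes dropped as well. They went from 2688 higher and 2543 lower to 1634 and 1712, from 2571 and 2193 to 1228 and 1003, and from 1027 and 1514 to 124 and 254. edgeR on the recovered reads gave 3 and 21, 11 and 8, and 1 and 20, and DESeq2 gave 1 and 15, 8 and 6, and 0 and 16. The 7 members lower with MCF10A EVs became 4 without PBS replicate 1, 3 without PBS replicate 2 and 3 without MCF10A EV replicate 2, and the 20 lower between the EV types became 10 without MCF10A EV replicate 1. The 2 members higher with MDA-MB-231 EVs became 1 without any 1 of the other libraries, and 3 without MDA-MB-231 EV replicate 2.

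Most of the calls between the EV types lay in the proton pump. Against PBS, 8 of its 19 members were lower and 0 higher with MDA-MB-231 EVs, beside 20.2% and 21.4% of genes with the same minimum. With MCF10A EVs 7 were higher and 0 lower, beside 20.6% and 17.2% of those genes. The direct comparison had 13 lower and 0 higher with MDA-MB-231 EVs, beside 12.1% and 8.09% of those genes. Of the 19 differences 18 were below 0. At an unadjusted p under 0.05 these 3 counts of 0 were also 0 with limma, and edgeR and DESeq2 on the recovered reads called 0 as well. They hold for the 19 members only. Tcirg1, which encodes another pump subunit but lies outside the name pattern, was higher than PBS with MDA-MB-231 EVs (log2 0.244) and with MCF10A EVs (log2 0.275). Median log2 differences were -0.08, 0.08 and -0.14 for the pump in the 3 comparisons. Summed over its members, the pump stood at 53671 and 53841 normalised reads in the PBS libraries, 57110 and 56347 after MCF10A EVs, and 51562 and 50381 after MDA-MB-231 EVs, and the 3 groups did not overlap. As a share of all normalised reads it was 0.212% and 0.213% in the PBS libraries, 0.230% and 0.227% after MCF10A EVs, and 0.212% and 0.211% after MDA-MB-231 EVs, so that the mean with MDA-MB-231 EVs differed from PBS by -0.75% on this scale in place of -5.18%. With library totals 7 pump members were lower and 1 was higher with MDA-MB-231 EVs.

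**Figure D2:**
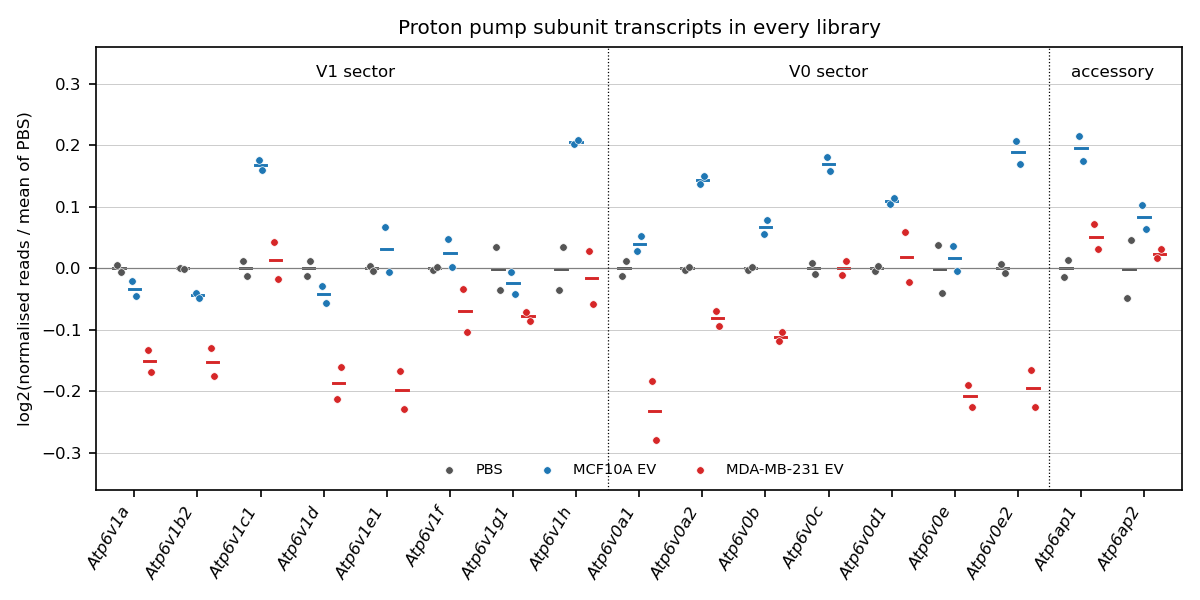
Log2 of normalised reads over the PBS mean for 17 pump members (the rare Atp6v1g2 and Atp6v0a4 are left out), with 1 point per library and a bar at the group mean. With MDA-MB-231 EVs 8 members lie below PBS past the test, and Atp6v0e2 is above PBS with MCF10A EVs and below it with MDA-MB-231 EVs.

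In the V1 sector, which burns ATP, 4 of 9 members fell with MDA-MB-231 EVs and 2 rose with MCF10A EVs. Of genes with the same minimum 20.2% fell with MDA-MB-231 EVs and 20.6% rose with MCF10A EVs. Atp6v1a on chromosome 16, the catalytic subunit, had 7665 and 7610 normalised reads in the PBS libraries, 7525 and 7406 after MCF10A EVs, and 6966 and 6794 after MDA-MB-231 EVs. Both MDA-MB-231 EV libraries were the lowest, 1.11-fold below PBS (log2 -0.15, SE 0.0283, limma, adjusted p = 0.000615). Its partner Atp6v1b2, the subunit that completes the ATP-binding ring, fell as well, from 5347 ± 4.23 to 4812 ± 107 (limma, adjusted p = 0.000914).

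Of the subunits of the V1 stalks and shaft, Atp6v1e1 and Atp6v1d fell too. Atp6v1e1 on chromosome 6, part of the peripheral stalks, had 2427 and 2413 in the PBS libraries, 2535 and 2411 after MCF10A EVs, and 2156 and 2065 after MDA-MB-231 EVs. The MDA-MB-231 EV libraries did not overlap the other 4, and the fall from PBS was 1.15-fold (log2 -0.20, SE 0.0389, limma, adjusted p = 0.000893). Atp6v1d, in the central rotor shaft, fell from 1535 ± 17.5 to 1349 ± 34.4 (limma, adjusted p = 0.00254).

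Atp6v1h and Atp6v1c1, subunits that regulate or join the sectors, took another course. Atp6v1h on chromosome 1 had 2736 and 2871 in the PBS libraries, 3227 and 3241 after MCF10A EVs, and 2858 and 2694 after MDA-MB-231 EVs. Here the MCF10A EV libraries stood apart on the high side, 1.15-fold above PBS (log2 0.21, SE 0.0383, limma, adjusted p = 0.000735), while PBS and MDA-MB-231 EVs overlapped. Atp6v1c1 likewise rose from 2614 ± 30.2 to 2937 ± 23.6 with MCF10A EVs (limma, adjusted p = 0.00188) and was 2639 ± 77.4 with MDA-MB-231 EVs. Atp6v1f and Atp6v1g1, small subunits of the rotor and of the stalks, and the rare Atp6v1g2 were called in no comparison. The difference of Atp6v1g1 between MDA-MB-231 EVs and PBS was -0.08, with a 95% interval of -0.16 to 0.01, and that of Atp6v1f was -0.07.

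In the V0 sector, 4 of 8 members fell with MDA-MB-231 EVs and 4 rose with MCF10A EVs. The shares of genes with the same minimum were again 20.2% and 20.6%. Subunit a holds the channels by which protons enter and leave the ring and comes in alternative forms that also set where the pump resides. Atp6v0a1 on chromosome 11 had 3135 and 3191 in the PBS libraries, 3226 and 3280 after MCF10A EVs, and 2786 and 2607 after MDA-MB-231 EVs. Its fall of 1.17-fold against PBS (log2 -0.23, SE 0.0373, limma, adjusted p = 0.000164) was the largest called fall in the pump against PBS, and the 4 other libraries all lay above. Atp6v0a2 on chromosome 5 had 2258 and 2267 in the PBS libraries, 2487 and 2511 after MCF10A EVs, and 2157 and 2121 after MDA-MB-231 EVs. For this form the 3 groups were separate, the rise with MCF10A EVs was called (log2 0.14, SE 0.0351, limma, adjusted p = 0.00557), and the difference of -0.08 with MDA-MB-231 EVs was not (limma, adjusted p = 0.0914). Tcirg1, which encodes the a3 form and lies outside the name pattern, rose with both, from 1842 and 1811 with PBS to 2144 and 2280 after MCF10A EVs and 2149 and 2178 after MDA-MB-231 EVs (limma, adjusted p = 8.87e-05 and 0.000183). Atp6v0a4, a rare a form in these cells, was called in no comparison.

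The proteolipid ring that carries the protons is built from the products of Atp6v0c and Atp6v0b. Atp6v0c on chromosome 17 had 5944 and 5870 in the PBS libraries, 6697 and 6593 after MCF10A EVs, and 5866 and 5958 after MDA-MB-231 EVs, and rose with MCF10A EVs alone among the comparisons with PBS (1.12-fold, log2 0.17, SE 0.0287, limma, adjusted p = 0.000333). The annotation names 2 pseudogenes of Atp6v0c, so its reads are uncertain to the extent that the authors' counting could split them. Atp6v0b fell from 2052 ± 3.84 to 1899.9 ± 13.7 with MDA-MB-231 EVs (limma, adjusted p = 0.0272). Atp6v0d1, which couples the ring to the shaft, rose with MCF10A EVs from 2805 ± 12.7 to 3026 ± 16.0 (limma, adjusted p = 0.0307).

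The small subunit e has forms encoded by Atp6v0e and Atp6v0e2. Atp6v0e on chromosome 17 had 1981 and 1876 in the PBS libraries, 1979 and 1924 after MCF10A EVs, and 1691 and 1650.0 after MDA-MB-231 EVs. It fell 1.15-fold with MDA-MB-231 EVs (log2 -0.21, SE 0.0411, limma, adjusted p = 0.00098). Atp6v0e2 on chromosome 6 had 1084 and 1072 in the PBS libraries, 1245 and 1212 after MCF10A EVs, and 962 and 922 after MDA-MB-231 EVs, so the 3 groups did not overlap. It was the member called in opposite directions against PBS, 1.14-fold higher with MCF10A EVs (limma, adjusted p = 0.00652) and 1.14-fold lower with MDA-MB-231 EVs (limma, adjusted p = 0.00442).

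Among accessory proteins, Atp6ap1, which helps assemble V0, had 5329 and 5434 in the PBS libraries, 6248 and 6077 after MCF10A EVs, and 5656 and 5501 after MDA-MB-231 EVs. The rise with MCF10A EVs was 1.15-fold (log2 0.20, SE 0.0306, limma, adjusted p = 0.000172), and the difference with MDA-MB-231 EVs, 0.05, was not called (limma, adjusted p = 0.219) but was with library totals (log2 0.12) and quantile scaling (log2 0.10). Atp6ap2, the prorenin receptor, was 3420 ± 158 with PBS, 3622 ± 70.1 with MCF10A EVs and 3476 ± 24.6 with MDA-MB-231 EVs, with no call. Without the trend term, 4 pump calls with MDA-MB-231 EVs and 2 with MCF10A EVs were left, and DESeq2 gave 4 with MCF10A EVs, where Atp6v0a2, Atp6v0e2 and Atp6v0d1 lost theirs. The call of Atp6v0b was also lost with library totals (log2 -0.04), quantile scaling (-0.09) and DESeq2 (-0.12). Leaving out any 1 PBS or MDA-MB-231 EV library ended it too (log2 -0.12 to -0.10), any 1 PBS or MCF10A EV library that of Atp6v0d1 (log2 0.10 to 0.12), and MCF10A EV replicate 1 that of Atp6v0e2 with MCF10A EVs (log2 0.17, adjusted p = 0.0575, limma).

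Compared directly, MDA-MB-231 EVs left Atp6v0e2 1.30-fold below MCF10A EVs (log2 -0.38, SE 0.0473, limma, adjusted p = 4.75e-05), the largest difference among the called members. Atp6v0a1 followed at 1.21-fold (log2 -0.27, SE 0.0373, limma, adjusted p = 0.000128), and Atp6v1e1, Atp6v0a2, Atp6v0e and Atp6v1h were each 1.17-fold lower. The other 7 called lower were Atp6v0b, Atp6v0c, Atp6v1c1, Atp6ap1, Atp6v1d, Atp6v1a and Atp6v1b2, from log2 -0.18 to -0.11. Of the 13, Atp6v1a, Atp6v1b2, Atp6v0a1, Atp6v1e1, Atp6v0b, Atp6v0e and Atp6v1d were the 7 that fell against PBS with MDA-MB-231 EVs and had no call with MCF10A EVs. Atp6v0c, Atp6ap1, Atp6v1h, Atp6v1c1 and Atp6v0a2 were the 5 that rose against PBS with MCF10A EVs and had no call with MDA-MB-231 EVs. Without MCF10A EV replicate 1 the direct count fell from 13 to 8, with the calls of Atp6v1d (log2 -0.13), Atp6v1c1 (-0.15), Atp6v1a (-0.11), Atp6v1b2 (-0.10) and Atp6ap1 (-0.12) lost, and without the trend term 1, Atp6v0e2, was left. Leaving out MDA-MB-231 EV replicate 2 ended the calls of Atp6v1c1 (-0.12), Atp6v1a (-0.10) and Atp6v1b2 (-0.09), MDA-MB-231 EV replicate 1 that of Atp6v1d (-0.12), and MCF10A EV replicate 2 those of Atp6v1d (-0.16) and Atp6v1b2 (-0.11). Library totals, quantile scaling and DESeq2 ended those of Atp6v1d and Atp6v1b2.

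**Figure D3:**
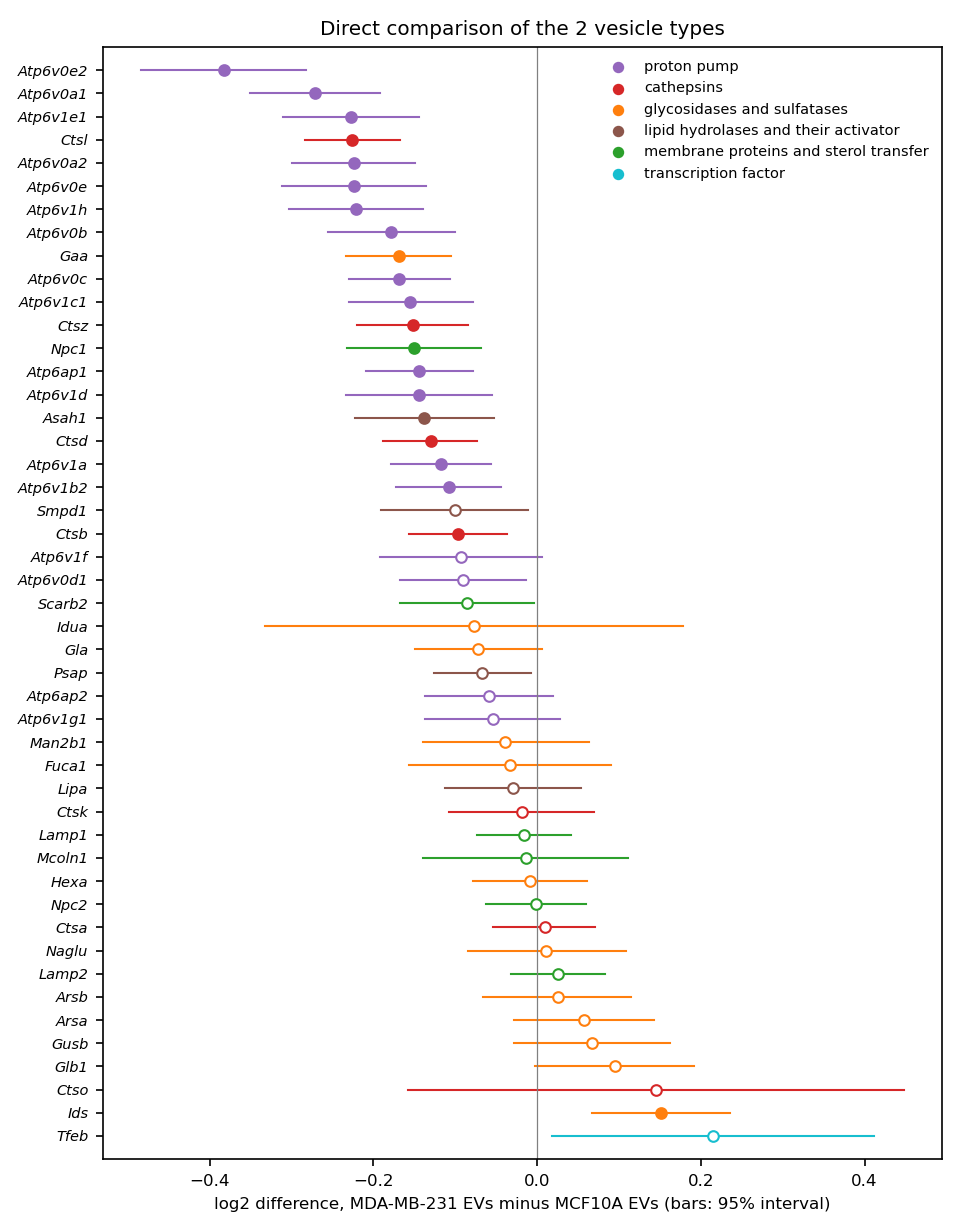
Log2 difference between MDA-MB-231 EVs and MCF10A EVs for members with a PBS mean of at least 100 normalised reads, coloured by class, with unadjusted 95% intervals, and filled points where limma called the gene. The called pump members lie on the left, from -0.38 for Atp6v0e2, and Ids is the filled point on the right at 0.15.

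Cathepsins are the main lysosomal proteases, and 3 of the 7 members fell with MDA-MB-231 EVs, 0 rose, and with MCF10A EVs 1 rose and 1 fell. Of genes with the same minimum 20.2% fell and 21.4% rose with MDA-MB-231 EVs, and 20.6% rose and 17.2% fell with MCF10A EVs. Ctsl on chromosome 13, a cysteine protease and the member with the most reads, had 59199 and 59818 in the PBS libraries, 68195 and 66204 after MCF10A EVs, and 58269 and 56623 after MDA-MB-231 EVs. It rose 1.13-fold with MCF10A EVs (log2 0.17, SE 0.0270, limma, adjusted p = 0.000152). With MDA-MB-231 EVs both libraries were below PBS, but the difference of -0.05 was not called (limma, adjusted p = 0.168), and it turned to 0.07 and was called under quantile scaling (limma, adjusted p = 0.0038), and the cause was not tested.

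The proteases that fell with MDA-MB-231 EVs were Ctsb, Ctsd and Ctsz. Ctsd on chromosome 7, the aspartic protease, had 11931 and 11745 in the PBS libraries, 11823 and 11525 after MCF10A EVs, and 10648 and 10679 after MDA-MB-231 EVs. PBS and MCF10A EVs overlapped and MDA-MB-231 EVs lay below both, 1.11-fold under PBS (log2 -0.15, SE 0.0270, limma, adjusted p = 0.000409). Ctsb on chromosome 14, a cysteine protease that can also act as a peptidyl dipeptidase, had 29480 and 28740, 28912 and 27925, and 26940 and 26195 in the same order of groups. It fell by 0.13 on the log2 scale (SE 0.0281, limma, adjusted p = 0.00169). Ctsz on chromosome 2, a carboxypeptidase, had 4949 and 4910, 4982 and 4896, and 4545 and 4346, a fall of 1.11-fold (log2 -0.15, SE 0.0319, limma, adjusted p = 0.00172). Under quantile scaling the calls of Ctsb and Ctsd against PBS were lost, at -0.03 and -0.07.

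Ctso on chromosome 3 had the lowest level per kb among the cathepsins, and its values were 136 and 134 in the PBS libraries, 94.7 and 103 after MCF10A EVs, and 109 and 110 after MDA-MB-231 EVs. It fell 1.36-fold with MCF10A EVs (log2 -0.44, SE 0.142, limma, adjusted p = 0.026), a call lost without any 1 of the PBS or MCF10A EV libraries (log2 -0.50 to -0.39) and with DESeq2 (adjusted p = 0.128). With MDA-MB-231 EVs its difference of -0.30 was not called (limma, adjusted p = 0.121). Ctsa, which protects other lysosomal enzymes and cuts peptides, stood at 8246 ± 122, 8206 ± 145 and 8255 ± 181, with a 95% interval of -0.06 to 0.06 for MDA-MB-231 EVs against PBS. Ctsk, a collagen-cleaving protease, stood at 1413 ± 30.4, 1449 ± 0.162 and 1430.3 ± 16.1. Neither was called in any comparison.

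In the direct comparison 4 cathepsins were lower with MDA-MB-231 EVs than with MCF10A EVs and 0 were higher. Of genes with the same minimum 12.1% were lower and 8.09% higher. Ctsl was 1.17-fold lower (log2 -0.23, SE 0.0270, limma, adjusted p = 3.53e-05), with no overlap between the groups. Ctsz, Ctsd and Ctsb differed by -0.15, -0.13 and -0.10. Without MCF10A EV replicate 1 the last 3 were not called (log2 -0.14, -0.11 and -0.07), and Ctsb was not called without either PBS library, which bear on the shared spread, nor without MDA-MB-231 EV replicate 2 (log2 -0.08). The direct call of Ctsb was also lost with library totals (log2 -0.05), TMM scaling (-0.09) and quantile scaling (-0.02), and that of Ctsd with quantile scaling (-0.08).

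**Figure D4:**
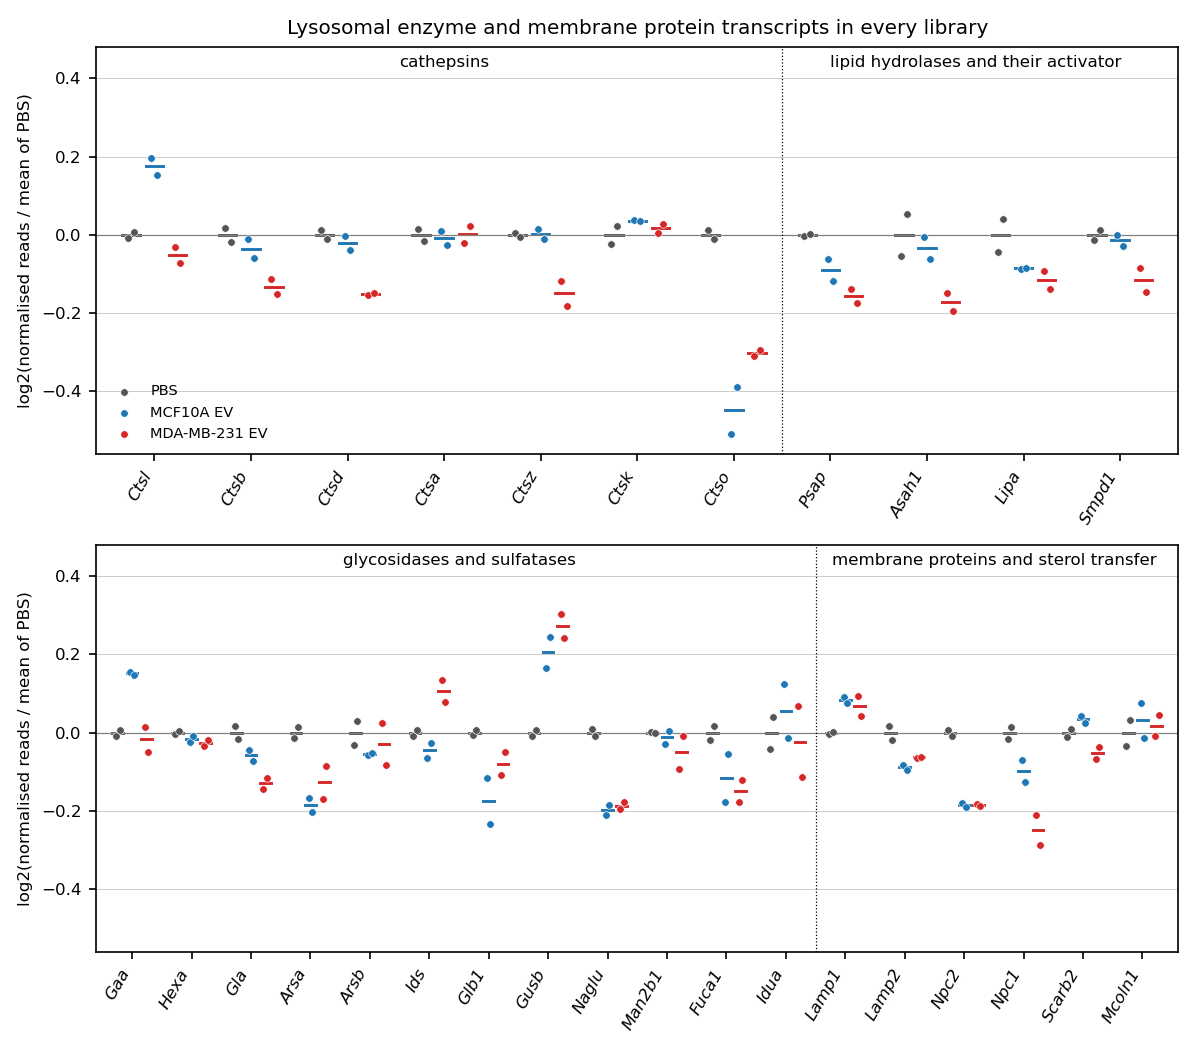
Log2 of normalised reads over the PBS mean for the hydrolases, membrane proteins and sterol transfer proteins with a PBS mean of at least 100 normalised reads, with 1 point per library and a bar at the group mean. Ctsl is high with MCF10A EVs, Gusb is high with both EV types, and Npc2 and Naglu sit at about the same level below PBS with both.

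Glycosidases and sulfatases remove sugars and sulfate groups, and their calls went both ways. Of 13 members 2 rose and 3 fell with MDA-MB-231 EVs, and 2 rose and 3 fell with MCF10A EVs, near the shares of genes with the same minimum. Those shares were 21.4% and 20.2% with MDA-MB-231 EVs, and 20.6% and 17.2% with MCF10A EVs. In the direct comparison 1 member was higher and 1 lower, beside 8.09% and 12.1% of those genes. Gusb on chromosome 5, which encodes beta-glucuronidase, had 1305 and 1319 in the PBS libraries, 1473 and 1556 after MCF10A EVs, and 1621 and 1551 after MDA-MB-231 EVs. Both EV groups lay above PBS, 1.15-fold with MCF10A EVs (log2 0.21, SE 0.0445, limma, adjusted p = 0.00229) and 1.21-fold with MDA-MB-231 EVs (log2 0.27, limma, adjusted p = 0.000179), and the EV groups overlapped. Naglu on chromosome 11, an enzyme of heparan sulfate breakdown, fell with both, from 1218 and 1202 to 1047 and 1064 after MCF10A EVs and 1057 and 1070 after MDA-MB-231 EVs. The falls were 1.15-fold and 1.14-fold (limma, adjusted p = 0.00353 and 0.00443), and the EV groups overlapped here too.

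Arsa on chromosome 15, the sulfatase that acts on sulfatides, had 2244 and 2288 in the PBS libraries, 2018 and 1970.5 after MCF10A EVs, and 2014 and 2138 after MDA-MB-231 EVs. It fell with MCF10A EVs (log2 -0.18, SE 0.0399, limma, adjusted p = 0.00235) and with MDA-MB-231 EVs (log2 -0.13, limma, adjusted p = 0.0219). The latter call was lost without either PBS library (log2 -0.14 and -0.11) and without MDA-MB-231 EV replicate 1 (-0.08). Library totals (-0.06), quantile scaling (-0.11) and DESeq2 (-0.13) ended it too. Glb1 on chromosome 9, the lysosomal beta-galactosidase, had 1761 and 1777, 1634 and 1504, and 1640 and 1709 in the same order. It fell with MCF10A EVs (log2 -0.17, SE 0.0457, limma, adjusted p = 0.00858). Leaving out PBS replicate 2 (log2 -0.17) or MCF10A EV replicate 2 (log2 -0.12) ended that call.

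Gaa on chromosome 11, the enzyme that degrades glycogen in lysosomes, had 6822 and 6899 in the PBS libraries, 7645 and 7599 after MCF10A EVs, and 6928 and 6634 after MDA-MB-231 EVs. It rose 1.11-fold with MCF10A EVs (log2 0.15, SE 0.0298, limma, adjusted p = 0.00115), and between the EV types it was lower with MDA-MB-231 EVs by a similar amount (log2 -0.17, limma, adjusted p = 0.00105). Ids, the X-linked iduronate sulfatase gene, had 1794 and 1812 in the PBS libraries, 1725 and 1771 after MCF10A EVs, and 1980 and 1903 after MDA-MB-231 EVs. It was the 1 member higher with MDA-MB-231 EVs than with MCF10A EVs (1.11-fold, log2 0.15, SE 0.0395, limma, adjusted p = 0.0154), and also rose against PBS (log2 0.11, limma, adjusted p = 0.0485). The call against PBS was lost without any 1 of PBS replicate 1, PBS replicate 2, MDA-MB-231 EV replicate 1, MCF10A EV replicate 1 or MCF10A EV replicate 2 (log2 0.08 to 0.11), and the direct call without MDA-MB-231 EV replicate 1 (log2 0.12) or MCF10A EV replicate 1 (log2 0.13). DESeq2 called neither (adjusted p = 0.245 and 0.0831).

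Gla, the X-linked gene of alpha-galactosidase A, had 2371 and 2319 in the PBS libraries, 2275 and 2230 after MCF10A EVs, and 2124 and 2163 after MDA-MB-231 EVs, and fell with MDA-MB-231 EVs (log2 -0.13, SE 0.0362, limma, adjusted p = 0.0111). That call was lost without MDA-MB-231 EV replicate 1 (log2 -0.12) or PBS replicate 1 (log2 -0.11), with library totals (log2 -0.06) and with DESeq2 (log2 -0.14). Hexa, Arsb, Man2b1, Fuca1, Idua and Manba, whose products act on gangliosides, sulfated glycosaminoglycans, mannosides and fucosides, were called in no comparison. Hexa was the steadiest, at 3021 ± 11.8, 2987 ± 23.4 and 2968 ± 22.0 normalised reads. Fuca1 was close to the threshold, at 856 ± 15.0 with PBS and 772 ± 21.5 with MDA-MB-231 EVs (log2 -0.15, limma, adjusted p = 0.0584; edgeR, adjusted p = 0.0387).

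The 4 members grouped as lipid hydrolases and their activator, Psap, Asah1, Lipa and Smpd1, all fell with MDA-MB-231 EVs, and 1 of them with MCF10A EVs. Of genes with the same minimum 20.2% fell with MDA-MB-231 EVs and 17.2% with MCF10A EVs. Psap on chromosome 10, whose product is cut into the saposins that help enzymes reach lipids, had 28375 and 28501 in the PBS libraries, 27271 and 26200.0 after MCF10A EVs, and 25847 and 25204 after MDA-MB-231 EVs. The 3 groups did not overlap, and the falls were 1.11-fold with MDA-MB-231 EVs (log2 -0.16, SE 0.0276, limma, adjusted p = 0.000369) and 1.06-fold with MCF10A EVs (log2 -0.09, limma, adjusted p = 0.0222). Quantile scaling ended the first call (log2 -0.04, limma, adjusted p = 0.179), and leaving out PBS replicate 1 (log2 -0.09), PBS replicate 2 (-0.09) or MCF10A EV replicate 2 (-0.06) ended the second.

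Asah1 on chromosome 8, the acid ceramidase gene, had 3150 and 3391 in the PBS libraries, 3256 and 3136 after MCF10A EVs, and 2952 and 2857 after MDA-MB-231 EVs. It fell 1.13-fold against PBS (log2 -0.17, SE 0.0399, limma, adjusted p = 0.00343) and was also lower than with MCF10A EVs (log2 -0.14, limma, adjusted p = 0.0274). The first call was lost without PBS replicate 2 (log2 -0.12), and the second without either MCF10A EV library (-0.11 and -0.16) and without MDA-MB-231 EV replicate 2 (-0.11). The second was also lost with library totals (-0.10), quantile scaling (-0.12) and DESeq2 (-0.13). Lipa on chromosome 19, the acid lipase gene, had 2425 and 2572, 2353 and 2358, and 2345 and 2270, and Smpd1 on chromosome 7, the acid sphingomyelinase gene, had 1528 and 1558, 1544 and 1512, and 1455 and 1394. Their falls with MDA-MB-231 EVs, -0.11 and -0.12 (limma, adjusted p = 0.0327 and 0.0464), were the weakest of the 4. Library totals (log2 -0.05 for both) and DESeq2 ended both calls, quantile scaling that of Lipa (-0.10) and TMM scaling that of Smpd1 (-0.11). Leaving out MDA-MB-231 EV replicate 2 or PBS replicate 2 ended that of Lipa (log2 -0.09 and -0.07), and leaving out any library but MDA-MB-231 EV replicate 1 ended that of Smpd1 (log2 -0.13 to -0.08).

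Of the 6 membrane and sterol transfer members 0 rose and 2 fell with MDA-MB-231 EVs, and 1 rose and 2 fell with MCF10A EVs. Of genes with the same minimum 21.4% rose and 20.2% fell with MDA-MB-231 EVs, and 20.6% rose and 17.2% fell with MCF10A EVs. Between the EV types 0 members were higher and 1 lower, beside 8.09% and 12.1%. The 2 that fell with MDA-MB-231 EVs encode proteins that export cholesterol from lysosomes, and 1 of them also fell with MCF10A EVs. Npc2, on chromosome 12, encodes the soluble carrier that binds cholesterol in the lumen, and had 5847 and 5783 in the PBS libraries, 5136 and 5101 after MCF10A EVs, and 5125 and 5105 after MDA-MB-231 EVs. The EV libraries overlapped each other and lay below PBS by 1.14-fold in both comparisons (log2 -0.18, SE 0.0287, limma, adjusted p = 0.000170 and, for MDA-MB-231 EVs, log2 -0.19, adjusted p = 0.000115). The interval of the difference between the EV types was -0.06 to 0.06. Npc1, on chromosome 18, encodes the membrane protein that takes cholesterol over, and had 2856 and 2919, 2753 and 2645, and 2496 and 2367. Its groups did not overlap, and it fell 1.19-fold with MDA-MB-231 EVs (log2 -0.25, SE 0.0382, limma, adjusted p = 0.000105), while the difference of -0.10 with MCF10A EVs was not called (limma, adjusted p = 0.0663) but was by edgeR (adjusted p = 0.0229). Between the EV types Npc1 differed by -0.15 (limma, adjusted p = 0.0129), a call lost without MDA-MB-231 EV replicate 2 (log2 -0.11) or MCF10A EV replicate 1 (log2 -0.12), with quantile scaling (log2 -0.12) and with DESeq2 (adjusted p = 0.0595).

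The main lysosomal membrane glycoproteins moved little and in opposite directions. Lamp1 on chromosome 8 had 22192 and 22277 in the PBS libraries, 23708 and 23423 after MCF10A EVs, and 23719 and 22891 after MDA-MB-231 EVs, so that all 4 EV libraries lay above PBS. It rose 1.06-fold with MCF10A EVs (log2 0.08, SE 0.0266, limma, adjusted p = 0.0255), and with MDA-MB-231 EVs its difference of 0.07 was not called (limma, adjusted p = 0.0628) but was with library totals (log2 0.13), quantile scaling (log2 0.19) and edgeR (adjusted p = 0.0369). Lamp2, X-linked and also the receptor of chaperone-mediated autophagy, had 11940 and 11652, 11150 and 11038, and 11279 and 11303, and fell 1.06-fold with MCF10A EVs (log2 -0.09, SE 0.0267, limma, adjusted p = 0.0196). Each of these 2 calls was lost without any 1 of the PBS or MCF10A EV libraries (log2 0.08 to 0.09 for Lamp1, -0.11 to -0.07 for Lamp2). TMM scaling ended that of Lamp1 (log2 0.08). That of Lamp2 was also lost with library totals (log2 -0.07) and quantile scaling (log2 -0.06), and its difference between the EV types was called under quantile scaling (log2 0.09). Scarb2, which encodes an abundant lysosomal membrane protein, and Mcoln1, a lysosomal calcium channel gene, were called in no comparison, with 1786 ± 18.6 and 725 ± 23.2 with PBS.

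Tfeb, whose product switches on lysosomal genes when it enters the nucleus, had 329 and 286 in the PBS libraries, 299 and 286 after MCF10A EVs, and 346 and 333 after MDA-MB-231 EVs. The MDA-MB-231 EV libraries were the highest, but limma called it in no comparison (at an unadjusted p under 0.05 in 1, between the EV types, and by edgeR and DESeq2 in 0), and the interval of the difference from PBS was -0.05 to 0.34. Among its relatives and regulators, of 21 tested nutrient sensing and MiT/TFE genes 4 rose and 3 fell with MDA-MB-231 EVs and 6 rose and 3 fell with MCF10A EVs. Over all genes tested 17.9% rose and 16.9% fell with MDA-MB-231 EVs, and 17.1% rose and 14.6% fell with MCF10A EVs. Flcn on chromosome 11, whose product folliculin acts with the Rag GTPases to retain TFEB in the cytosol, fell from 2657 and 2520 with PBS to 1811 and 1872 after MCF10A EVs and 1335 and 1384 after MDA-MB-231 EVs (log2 -0.49 and -0.93, limma, adjusted p = 6.50e-07 and 3.11e-10). Mitf fell from a mean of 1467 with PBS to 954 with MCF10A EVs and 1132 with MDA-MB-231 EVs (log2 -0.62 and -0.38, limma, adjusted p = 1.34e-06 and 9.46e-05). Fnip2, which encodes a folliculin partner, rose with both, by 0.23 with MCF10A EVs and 0.32 with MDA-MB-231 EVs on the log2 scale, and Tfe3 was not called (log2 0.06 and 0.09). In each comparison with PBS, Flcn and Mitf differed by more than any called member.

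Further lysosomal genes were counted in lists beside the members. Over all genes tested 17.9% rose and 16.9% fell with MDA-MB-231 EVs, and 17.1% rose and 14.6% fell with MCF10A EVs. In the direct comparison 6.84% were higher and 10.1% lower. Of 31 further hydrolases 1 rose and 8 fell with MDA-MB-231 EVs, 6 rose and 6 fell with MCF10A EVs, and 0 were higher and 8 lower in the direct comparison. Cpq, a carboxypeptidase, fell with both, from 1113 and 1063 to 810.1 and 725 after MCF10A EVs and 837 and 769 after MDA-MB-231 EVs. Dpp7, a dipeptidase, rose with both (log2 0.24 with MCF10A EVs and 0.18 with MDA-MB-231 EVs).

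Of 23 further lysosomal membrane proteins 2 rose and 9 fell with MDA-MB-231 EVs, 5 rose and 4 fell with MCF10A EVs, and 7 were lower in the direct comparison. The shares over all genes tested were, in that order, 17.9%, 16.9%, 17.1%, 14.6% and 10.1%. Lmbrd1, the exporter of cobalamin, fell from 2262 and 2142 with PBS to 1960 and 1813 after MCF10A EVs and 1432 and 1527 after MDA-MB-231 EVs (log2 -0.22 and -0.57, limma, adjusted p = 0.00226 and 2.54e-07). Clcn7, the chloride-proton exchanger that works beside the pump, rose from 1554 and 1508 to 1898 and 1839 after MCF10A EVs and 1684 and 1645 after MDA-MB-231 EVs (log2 0.29 and 0.12, limma, adjusted p = 7.02e-05 and 0.0313). Ostm1, the beta subunit of that exchanger, went the other way, with log2 -0.23 and -0.24. Cd63, a tetraspanin of late endosomes, rose with MCF10A EVs (log2 0.10) and fell with MDA-MB-231 EVs (log2 -0.12).

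Genes that activate enzymes or sort them to the lysosome were counted as another list. Of 16 members of enzyme activation and mannose 6-phosphate sorting 8 rose and 3 fell with MDA-MB-231 EVs, and 5 rose and 1 fell with MCF10A EVs. The shares over all genes tested were, in that order, 17.9%, 16.9%, 17.1% and 14.6%. M6pr on chromosome 6, the cation-dependent mannose 6-phosphate receptor gene, fell from 2916 and 2938 with PBS to 2426 and 2352 with MDA-MB-231 EVs and had 3011 and 2982 with MCF10A EVs (log2 -0.29, limma, adjusted p = 6.98e-06). Vps35, a core of the retromer that returns receptors from endosomes, rose with both, from 6640 and 6812 to 7665 and 7551 and to 7778 and 7589. Igf2r, the larger receptor, was called only between the EV types, lower with MDA-MB-231 EVs (log2 -0.13, limma, adjusted p = 0.00945).

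Of 9 tested genes listed as cathepsin inhibitors 1, Serpinb9 (log2 0.476), rose and 3 fell with MDA-MB-231 EVs, beside 17.9% and 16.9% of all genes tested. A place in this list does not establish that a product, such as that of Serpinb9, inhibits lysosomal cathepsins. Stfa3, a stefin, fell from 385 and 408 to 83.2 and 66.3, and to 145 and 191 with MCF10A EVs (log2 -2.40 and -1.25, limma, adjusted p = 1.08e-08 and 1.49e-05). Cst3, the secreted cystatin C, fell with both EV types (log2 -0.22 and -0.23). Of 25 autophagy genes 1 rose and 13 fell with MDA-MB-231 EVs and 2 rose and 10 fell with MCF10A EVs. The shares over all genes tested were, in that order, 17.9%, 16.9%, 17.1% and 14.6%. Sqstm1, the cargo receptor p62, fell from 17950 and 17730 to 13350 and 13040 with MDA-MB-231 EVs and 16350 and 15970 with MCF10A EVs (log2 -0.44 and -0.14, limma, adjusted p = 9.88e-09 and 0.00078).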

How the data were processed

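RNA-seq was run on 6 NIH3T3 libraries, and the authors deposited a normalised signal per gene. The submitters' processing notes name TopHat2, edgeR and the build hg19, while the deposited table lists genes of the mouse. Which mouse build, read counter, annotation and strand setting were used is not given in the sources used here. Inverting edgeR's quantile adjustment returned whole reads for 122850 of 122850 values, 100% (relative tolerance 1e-06), at a common dispersion of 0.000591. Library totals gave a floor of 3 reads, 0.102 to 0.134 CPM, which covers counting error only.

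limma 3.58.1 (eBayes with trend) in R 4.3.3 was fitted to log2(value + 1) of 15025 genes (filter: 1 normalised read or more in 2 or more libraries), with 1 mean per group and 3 residual and 11.5 prior degrees of freedom. Alternatives were other pseudocounts, filters and scalings, limma without trend, edgeR 4.0.16 and DESeq2 1.42.0 on the recovered reads, a replicate block and leaving out each library. On those reads edgeR called 2836 genes higher and 2718 lower (MDA-MB-231 EVs against PBS), 2644 and 2516 (MCF10A EVs against PBS) and 1351 and 1636 (between the EV types) of 12352. The fit was tested on simulated data. Replicates differed beyond sampling noise. The planned tests assumed normalised values, and the deposited values were treated as such.

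Members, gene lists and tests were chosen with earlier results of these data known. Members were named with every library's value if most abundant or among the 4 largest called differences of their class per direction and comparison. From other lists up to 2 called genes per direction and comparison with the smallest p and a mean of at least 100 were taken, and some genes named by this rule are not reported here. Lists are described by counts, with no test of a list. Further lists were fibroblast, macrophage and osteoclast, and epithelial markers. Exon lengths were the union of the exons of protein-coding transcripts in GENCODE vM21, and promoter windows came from RefSeq.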

Additional observations from a re-analysis of the deposited data

Results flagged for a closer look

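Atp6v0e2, which encodes a form of the small subunit e of the pump, was called higher against PBS with MCF10A EVs (log2 0.19) and lower with MDA-MB-231 EVs (log2 -0.20). The difference between the EV types, tested directly with limma, was -0.38 (adjusted p = 4.75e-05), and both MDA-MB-231 EV libraries lay below both MCF10A EV libraries. A member was flagged if called in opposite directions against PBS and also called between the EV types. The direct call is thus part of the rule, from the same libraries, and is no separate support. The direct call was kept under all 18 alternatives, and that against PBS with MDA-MB-231 EVs also. The rise with MCF10A EVs was lost by limma without trend, with DESeq2 and without MCF10A EV replicate 1. Of the 50 members it was the only one called in opposite directions against PBS.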

How the results depend on the processing

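In every alternative run, called members kept the sign of their difference, and 8 of 22 calls with MDA-MB-231 EVs and 4 of 18 with MCF10A EVs against PBS, and 1 of 21 between the EV types passed all 18 alternatives. Those were Atp6v0a1, Atp6v0e, Atp6v0e2, Atp6v1d, Gusb, Naglu, Npc1 and Npc2, then Atp6ap1, Atp6v0c, Naglu and Npc2, and then Atp6v0e2. A pair of uncalled differences turned under quantile scaling, Ctsl with MDA-MB-231 EVs against PBS to 0.073 and Lamp1 between the EV types to 0.073. For MDA-MB-231 EVs against PBS the 2 higher members became 1 with no filter, DESeq2's size factors, limma without trend, DESeq2 or a replicate block, 4 with library totals and 5 with quantile scaling, and 1 to 3 without 1 library. The 20 lower became 8 without trend and 15 to 19 without 1 library. For MCF10A EVs against PBS the 11 higher became 2 without trend and 8 to 11 without 1 library, and the 7 lower 3 and 3 to 8. Between the EV types the 1 higher became 3 with quantile scaling, 0 without trend or with DESeq2, and 0 to 1 without 1 library, and the 20 lower became 1 without trend and 10 to 20 without 1 library, the 10 without MCF10A EV replicate 1. With 1 library left in a group, it was assumed to vary like the others. A replicate block gave 1 higher and 19 lower, 11 and 7, and 1 and 20. The pairing of replicate numbers had no support in correlations of -0.00648, -0.00442 and 0.0188 over 10309 genes. The labels do not say whether libraries of the same number were made together, and these correlations cannot settle it. DESeq2 gave no adjusted p for Atp6v0a4 with MCF10A EVs against PBS, so it covers 18 of the 19 pump members there. The cause of these shifts was not tested. Differences of low members such as Atp6v0a4, Atp6v1g2 and Manba are limited by depth.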
